A study of Yarrowia lipolytica with 6 samples.

Results

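The RefSeq non-coding transcripts of the oleaginous yeast Yarrowia lipolytica are the 129 rows, of 9235 in each count file, whose identifier starts with rna-XR_, the prefix RefSeq gives to predicted non-coding RNAs. They were taken by that prefix alone. RNA sequencing compared a snf1 deletion strain, made by homologous recombination, with its parent CXAU/AI, called wild type here, with 3 libraries per group that the labels call biological replicates. As background, SNF1 encodes a protein kinase that yeasts need to grow on many carbon sources when glucose is scarce. Both strains were precultured in a medium with uracil (48 h), diluted and regrown at 30 °C (24 h), washed, and exposed to 2% n-decane, an alkane, and 1% uracil (1 h). All 6 libraries therefore come from cells exposed to decane, and Triton is listed at 0.1% for all of them. Whether the deletion strain is 1 clone, and whether RNA was selected by its poly(A) tail or cleared of ribosomal RNA, is not given in the sources used here.

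The count files give no names for these rows. A RefSeq gene table of another strain, CLIB89(W29), holds the same accessions in later versions for 103 of the 129 rows, and lists all 103 as ribosomal RNA (rRNA). The other 26 rows had no match and are known here by accession only. As background, rRNAs form the core of the ribosome, and the small 5S rRNA is made by RNA polymerase III. In Y. lipolytica the genes of 5S rRNA are known to lie scattered through the genome as many near-identical copies, a number of them joined to a tRNA gene, rather than inside the large rRNA repeat. The gene table does not say which rRNA a row is. Reads from near-identical copies can be split, dropped or moved between rows, and the counting rules and the use of strand are not given, so each rRNA row is uncertain as a measure of its own gene.

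Libraries held 32315239 to 37094343 counts in the deletion and 33835106 to 38054417 in wild type. Libraries of a group all differed by more than sampling noise, with a chi-square of 299 or more per feature. As a check of the labels, 1 coding row of 6447 had at least 100 counts in every wild type library and 0 in every deletion library. It held 0, 0 and 0 counts in the deletion against 3644, 3418 and 2546 in wild type. This row was found by that search, and no identifier used here ties it to Snf1. The authors' deposited table lists Snf1 at a log2 fold change of -11.31. Of the coding rows, 638 had no count in any library. Levels are given as CPM, counts per 1000000 after TMM scaling (edgeR's correction for differing library make-up), and are not corrected for transcript length. In bulk RNA, more cells holding a transcript and more of it per cell cannot be told apart. Fold changes are deletion over wild type, from edgeR's quasi-likelihood test over all 7244 tested features, with Benjamini-Hochberg adjustment and a threshold of 0.05.

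Few of the 129 rows were measured well. No count fell on 31 of them in any library, which allows at most 3 counts per library, or 0.0788 to 0.0928 CPM before TMM scaling. Of the 98 rows with a count, 24 had one in every library, and 22 passed the filter on low counts and were tested. The deletion libraries had counts on 66, 60 and 71 rows, against 37, 34 and 44 rows in the wild type libraries. In the deletion alone, 44 rows had counts, 234 in all and at most 23 on a single row, while 8 rows had counts in wild type alone, 22 in all and at most 4 on a row. More rows were thus touched in each deletion library than in any wild type library, by a handful of counts each. Rows of other kinds were not counted in this way, but they leaned upward too at low counts. Of rows with counts below the filter, 75% of the non-coding rows were higher in mean CPM in the deletion. This share was 77.7% for rows with RNA gene tags, 71.6% for transcripts assembled by StringTie and 64.8% for coding rows.

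The rRNA rows were nearly empty. Summed over the 103 rows, they held 451, 363 and 618 counts in the deletion, against 183, 106 and 206 counts in wild type. The groups did not overlap, which was also so for the summed coding, StringTie and RNA gene tag rows below the filter. The largest of these shares, in deletion replicate 3, was 0.00191% of the library (exact 95% binomial interval 0.00176 to 0.00207%), and the smallest, in wild type replicate 2, was 0.000279% (0.000228 to 0.000337%). Such intervals cover counting error only. The median rRNA row had 3 counts over all 6 libraries, 29 had none and 7 were tested. Of the 26 rows with no match, the median was 109.5 counts, 2 had none and 15 were tested.

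Among the rRNA rows, counts went with the neighbouring gene. In the CLIB89(W29) gene order, 55 of the 103 rRNA genes lie next to a tRNA gene on at least 1 side, and 48 do not. Of the 55 beside a tRNA gene, 28 (50.9%) had any count, 5 had 10 or more over all libraries, and none was tested. Of the 48 not beside one, 46 (95.8%) had a count, 21 had 10 or more, and 7 were tested. The median was 1 count against 7.5, and the totals were 167 against 1760 counts. Beside a tRNA gene the rows summed to 41, 30 and 60 counts in the deletion and 8, 15 and 13 in wild type. The other rRNA rows summed to 410, 333 and 558 counts in the deletion and 175, 91 and 193 in wild type. The deletion libraries were thus higher on both sides of this split, which was chosen after the values were seen. Gene order in the sequenced strains was not checked, and no test of the split was made.

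**Figure D1:**
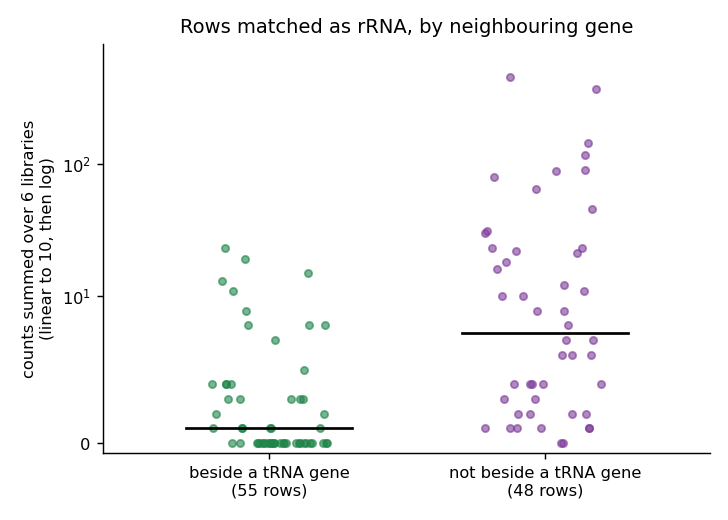
Counts summed over the 6 libraries (linear to 10, then log) for the 103 rows matched as rRNA, split by whether a tRNA gene is next to them in the CLIB89(W29) gene order. Each point is a row and the bars are medians, 1 count beside a tRNA gene and 7.5 elsewhere. The highest row beside a tRNA gene held 23 counts, against 447 for XR_002432100 among the others.

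The share of all counts on the 129 rows was 0.403, 0.188 and 0.355% in the deletion, against 0.0997, 0.0529 and 0.125% in wild type. This is 0.315 ± 0.113% and 0.0926 ± 0.0367% (SD, n = 3 each), a difference of 0.223 percentage points. Each deletion library lay above each wild type library, and replicate 2 was the lowest in both groups. That the share was higher was known from earlier work on these counts, and no p is given for a sum over chosen rows.

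A single row, XR_002432111, carried 94.9% of that difference. It has no match in the gene table, so its role is not given here. It held 140250, 59797 and 107423 counts in the deletion, against 31411, 16468 and 41734 in wild type, or 93.4% and 89.8% of all counts on the 129 rows. After scaling these were 3562, 1433 and 2909 CPM in the deletion and 986.5, 554.2 and 1224 CPM in wild type. The lowest deletion library stood above the highest wild type library. The row rose to 2635 ± 1091 CPM in the deletion, against 921.6 ± 339.6 CPM in wild type (log2 fold change 1.52, SE 0.47, adjusted p = 0.0233 in edgeR's quasi-likelihood test). With any of 4 libraries left out it did not pass: adjusted p = 0.0742 without deletion replicate 1, 0.0766 without deletion replicate 3, 0.0546 without wild type replicate 1 and 0.078 without wild type replicate 2, with log2 fold changes of 1.25 to 1.56. Its mean CPM over all libraries ranked 84 among the 9235 features and was 33.5 times that of the next non-coding row.

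XR_002432125, also without a match, carried a further 2.69% of the difference in share. It stood at 99.7, 51.3 and 79.6 CPM in the deletion and at 23.1, 23.2 and 42.2 CPM in wild type. It rose (log2 fold change 1.38, SE 0.36, adjusted p = 0.00883) and kept its call with each library left out. The other 127 rows made up 2.45% of the difference, with 82 of all 129 rows higher in mean share and 16 lower. Shares are not TMM-scaled, and on that scale features in general leaned upward. The median log2 fold change over all tested features was 0.40 without TMM and 0.04 with it. After TMM, 18 of the 22 tested rows and 57 of the 76 untested rows with counts were higher.

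Without XR_002432111, the other 128 rows together held 0.0245, 0.0150 and 0.0227% of counts in the deletion, against 0.00691, 0.00963 and 0.0113% in wild type. The groups still did not overlap. After TMM they were apart only narrowly, at 124.5 CPM in deletion replicate 2 against 123.3 CPM in wild type replicate 2. Transcripts assembled by StringTie were also higher, at 22.4, 14.7 and 20.7% of counts in the deletion and 7.86, 5.78 and 9.42% in wild type. This is the same order of libraries as for XR_002432111. Within wild type it differs from that of the other 128 rows, where replicate 1 was the lowest. The 510 rows with RNA gene tags held 0.0133, 0.0119 and 0.0181% in the deletion and 0.00710, 0.00674 and 0.00953% in wild type. After TMM the groups overlapped for these rows, at 98.39 CPM in deletion replicate 2 against 102.4 CPM in wild type replicate 3. The part of these classes in the share of the non-coding rows was not tested.

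**Figure D2:**
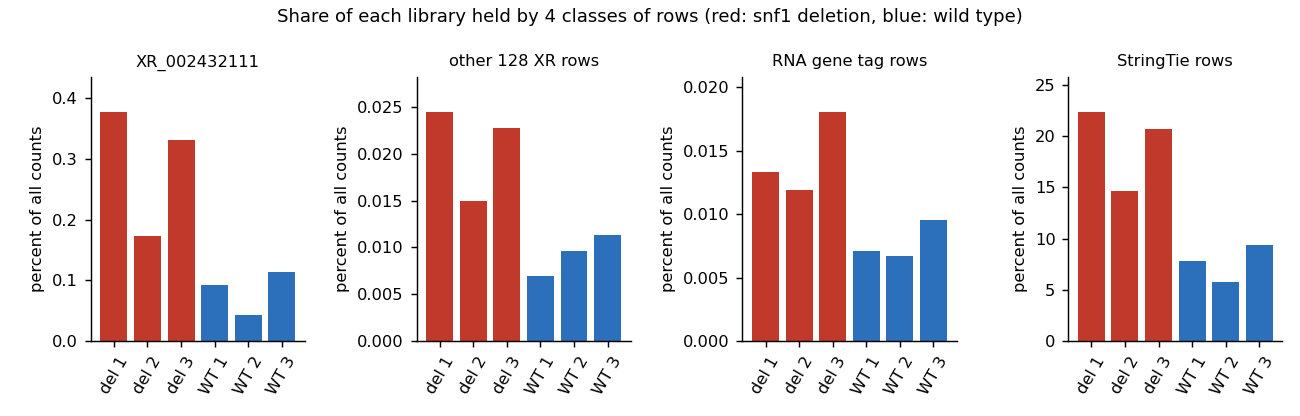
Percent of all counts in each library for XR_002432111, the other 128 non-coding rows, the RNA gene tag rows and the StringTie transcripts. Bars start at 0, with deletion libraries on the left in red and wild type libraries on the right in blue. In all 4 classes each deletion library lies above each wild type library. The shares are not TMM-scaled, and after TMM the groups overlapped for the RNA gene tag rows.

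The authors' deposited table of 2840 genes past their test carries no XR_ identifier. It lists 18 RNA gene tags, 16 of them higher in the deletion. The share of higher genes over that whole table was not counted. In the edgeR fit used here, 3 of 21 tested RNA gene tag rows were called higher and 3 lower. Of the 18 listed tags, 15 have a row of their own among the RNA gene tag rows of the counts. YALI0_C24442r is 1 of the 3 that do not. It is listed in the authors' deposited table with a mean of 81273 normalised counts, a log2 fold change of 1.66 and an adjusted p of 0.000223. No identifier ties this gene to a row of the counts, so its values stand beside those of XR_002432111 without being set equal to them.

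Of the 22 tested rows, 7 rose and none fell, so 31.8% were called higher, where 18.3% of all tested features were called higher and 18.7% lower. In either direction 37.1% of all features were called, so the non-coding rows were not called more often than features in general, while all their calls were in 1 direction. At an unadjusted p under 0.05, 11 were higher and 0 lower in edgeR, and DESeq2 also called none lower. The groups did not overlap, with the deletion above, for 12 of the 22 (54.5%), against 24.9% of all tested features (24.5% had the deletion below in every library, and none of the 22 did). By kind, 14.2% of tested coding rows were called higher and 21.3% lower, while for StringTie transcripts it was 33.1% and 9.95%. For the 21 tested RNA gene tag rows it was 14.3% in each direction. A row can pass the filter on the counts of 1 group alone, so these counts describe the tested rows and not all 129. With no filter, 11 of the 98 rows with counts were called higher (11.2%), below the 16.6% of all features in that fit. The share of calls in the higher direction over all features depended on scaling, at 49.5% with TMM and at 67.5% both without TMM and under upper-quartile scaling. None of the 22 rows was called lower under any of these.

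**Figure D3:**
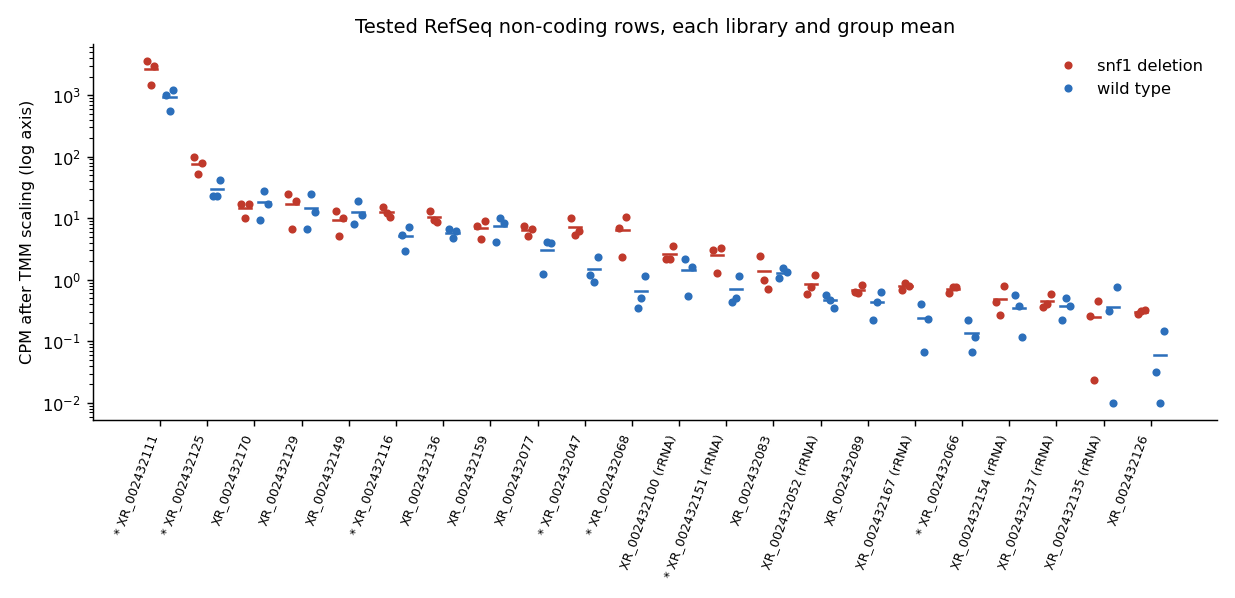
CPM after TMM scaling (log axis) of the 22 tested rows in every library, deletion in red to the left of wild type in blue, with lines at the group means. Asterisks mark the 7 rows past the threshold, rRNA marks rows matched as such, and values of 0 are drawn at 0.01 CPM. XR_002432111 lies far above the rest, at 2635 CPM in the deletion and 921.6 CPM in wild type.

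The 5 other rises were on weaker rows. XR_002432068 had 272, 97 and 385 counts in the deletion, against 11, 15 and 39 in wild type, or 6.91, 2.33 and 10.4 CPM against 0.346, 0.505 and 1.14 CPM. This was the largest fitted change of the 22 rows, at 3.29 on the log2 scale (SE 0.63, adjusted p = 0.0014). XR_002432047 stood at 10.2, 5.30 and 6.31 CPM in the deletion and at 1.19, 0.909 and 2.32 CPM in wild type (log2 fold change 2.30, SE 0.48, adjusted p = 0.00244). Both kept their calls with each library left out and under every other setting tried.

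XR_002432116 stood at 15.3, 12.0 and 10.5 CPM in the deletion, against 5.34, 2.93 and 7.33 CPM in wild type (log2 fold change 1.27, adjusted p = 0.0223). Its call was lost without deletion replicate 1 (adjusted p = 0.0612), wild type replicate 1 (0.0557) or wild type replicate 2 (0.0563). XR_002432066 had 24, 32 and 28 counts in the deletion and 7, 2 and 4 in wild type (log2 fold change 2.36, adjusted p = 0.0159). It did not pass without deletion replicate 3 (adjusted p = 0.0648), wild type replicate 2 (0.0635) or wild type replicate 3 (0.0632). In both rows the groups did not overlap.

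XR_002432151 was the only rRNA row past the threshold. It had 119, 54 and 122 counts in the deletion, against 14, 15 and 39 in wild type, or 3.02, 1.29 and 3.30 CPM against 0.440, 0.505 and 1.14 CPM. All deletion libraries lay above all wild type libraries, by little for deletion replicate 2 and wild type replicate 3 (log2 fold change 1.86, SE 0.58, adjusted p = 0.0233). It missed the threshold without deletion replicate 1 (adjusted p = 0.0576), deletion replicate 3 (0.105), wild type replicate 1 (0.0824) or wild type replicate 2 (0.0654). Its coding neighbours in the gene table, YALI1_F01897g and YALI1_F01929g, had log2 fold changes of -0.46 and 0.13, neither past the threshold (adjusted p = 0.32 and 0.794).

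The other 6 tested rRNA rows did not pass with TMM and all libraries. XR_002432100, the rRNA row with most counts, had 87, 90 and 131 counts in the deletion and 69, 16 and 54 in wild type (log2 fold change 0.88, SE 0.55, adjusted p = 0.226). XR_002432167 was at 27, 37 and 29 counts in the deletion and 13, 2 and 8 in wild type (log2 fold change 1.71, adjusted p = 0.0642). It passed in 4 other settings, with an adjusted p of 0.0318 under upper-quartile scaling, 0.0351 without TMM, 0.0488 with TMM factors from coding rows alone and 0.0476 without wild type replicate 1. XR_002432052 was at 23, 32 and 44 counts in the deletion and 18, 14 and 12 in wild type (0.87, adjusted p = 0.259). In XR_002432167 and XR_002432052 every deletion library lay above every wild type library, and in XR_002432100 the groups overlapped. XR_002432154, XR_002432137 and XR_002432135 had log2 fold changes of 0.49, 0.30 and -0.57 on 64 to 90 counts in all. Over the 7 tested rRNA rows, 10 coding neighbours were tested too. Their log2 fold changes ran from -2.21 to 0.63 with a median of -0.29, beside a median of 0.87 for the rRNA rows themselves. The neighbours all had higher levels than these rRNA rows, so the medians are not at like levels. Over coding rows the median log2 fold change fell with level, from 0.96 under 1 CPM to -0.14 from 10 to 100 CPM.

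A group of well-measured rows without a match showed no rise. XR_002432170 stood at 16.8, 10.2 and 17.2 CPM in the deletion and at 9.27, 27.6 and 17.2 CPM in wild type (log2 fold change -0.29, SE 0.40, adjusted p = 0.6). XR_002432129 stood at 24.4, 6.62 and 19.2 CPM in the deletion and at 6.78, 24.6 and 12.5 CPM in wild type (0.19, SE 0.50, adjusted p = 0.794). XR_002432149 was at 13.3, 5.06 and 10.3 CPM in the deletion against 7.98, 18.8 and 11.1 CPM in wild type (-0.41, SE 0.43, adjusted p = 0.477). In all of these the groups overlapped widely.

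XR_002432159 was similar, at 7.37, 4.67 and 8.97 CPM in the deletion and 4.08, 10.1 and 8.30 CPM in wild type (-0.10, SE 0.42, adjusted p = 0.883). In these 4 rows, singled out after their values were seen, replicate 2 was the lowest deletion library and the highest wild type library. Of the 7 rows that rose, replicate 2 was the lowest wild type library in 4, and replicate 1 in 3. XR_002432077, with a log2 fold change of 1.06, also had replicate 2 as its lowest deletion and highest wild type library. The 4 flat rows had standard errors of 0.40 to 0.50 on the log2 scale, so that moderate changes in either direction were not detectable.

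Between these patterns lay rows that leaned higher without passing. XR_002432136 stood at 13.03, 9.35 and 8.69 CPM in the deletion and at 6.63, 4.78 and 6.10 CPM in wild type (log2 fold change 0.83, SE 0.35, adjusted p = 0.0795). XR_002432077 stood at 7.57, 5.20 and 6.61 CPM in the deletion and at 1.23, 4.07 and 3.99 CPM in wild type (1.06, SE 0.47, adjusted p = 0.0927). The groups did not overlap in either row. Both passed without TMM and under upper-quartile scaling, and XR_002432136 also with TMM factors from coding rows alone (adjusted p = 0.0461). XR_002432126 had 11, 13 and 12 counts in the deletion and 1, 0 and 5 in wild type (2.25, SE 0.93, adjusted p = 0.0733), and passed in limma-voom and 3 other settings. XR_002432089 and XR_002432083 had log2 fold changes of 0.64 and 0.06, with groups that overlapped.

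Whether the weak rows move alike was read from the 17 tested rows with a mean under 10 CPM. Of these, 15 had a positive log2 fold change, 5 rose, and the values ran from -0.57 to 3.29 with a median of 0.88. The median over all tested features was 0.04. Weak features of other kinds leaned the same way: under 10 CPM, the median was 0.45 over 1159 coding rows, 0.78 over 1146 StringTie transcripts and 0.73 over 19 RNA gene tag rows, and 25.5% of all 2349 weak features were called higher and 6.94% lower. The 5 of 17 weak non-coding rows called higher, or 29.4%, lay close to that 25.5%.

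By level, the 8 non-coding rows under 1 CPM had a median log2 fold change of 0.76, against 0.96 for 204 coding rows, 0.77 for 301 StringTie transcripts and 0.84 for all 528 features of that level. The 9 rows from 1 to 10 CPM had a median of 1.06, against 0.35 for 955 coding rows, 0.78 for 845 StringTie transcripts and 0.55 for all 1821 features. The 4 rows from 10 to 100 CPM had a median of -0.05, against -0.14 for 2983 coding rows, 0.48 for 362 StringTie transcripts and -0.08 for all 3351 features. Above 100 CPM stood XR_002432111 alone, at 1.52, where the median was -0.48 for 1471 coding rows, 0.41 for 70 StringTie transcripts and -0.46 for all 1544 features. No test was made of these lists, which are set side by side as a description.

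**Figure D4:**
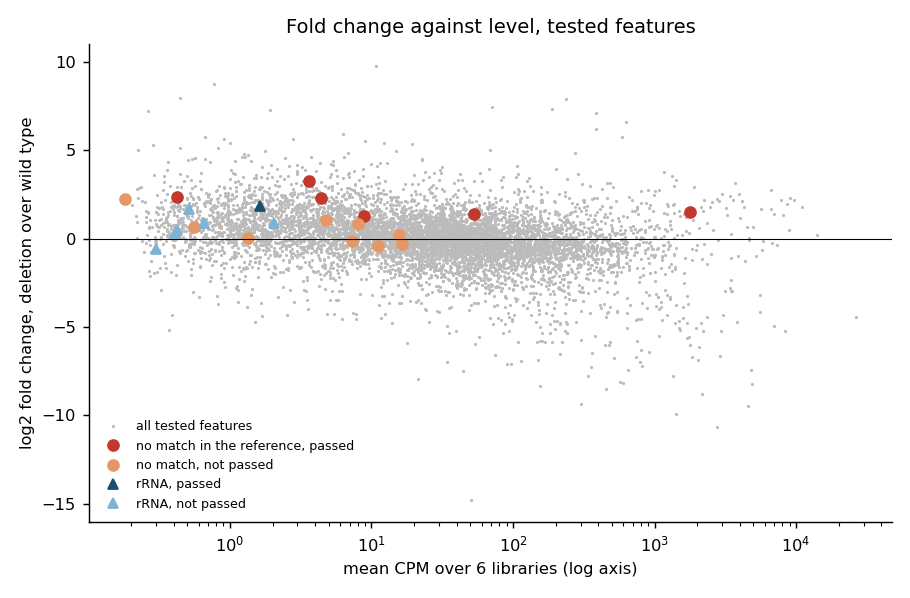
Log2 fold change, deletion over wild type, against mean CPM over 6 libraries (log axis) for all 7244 tested features in grey and the 22 non-coding rows in colour, with rRNA rows as triangles and darker symbols for rows past the threshold. The grey cloud leans upward at low levels, where most of the non-coding rows lie. XR_002432111 is the coloured point at the far right, at a log2 fold change of 1.52.

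For 10 of the 17 weak rows (58.8%), every deletion library stood above every wild type library, against 36.7% of all weak features and 42.3% of weak StringTie transcripts. Within the deletion, replicate 2 was the lowest library for 9 of the 17 (52.9%), against 38.4% of all weak features, and replicate 3 was the highest for 10 (58.8%, against 31.5%). Within wild type, replicate 2 was the lowest for 8 (47.1%, against 48.1%). These orders are descriptions with no test. Over the 22 tested rows, deletion replicate 2 was the lowest deletion library in 14 and the highest in 2, while over all tested features it was the lowest in 41.9% and the highest in 36%. In wild type, replicate 2 was the highest library for 7 rows (31.8%, against 31.9% of all tested features) and the lowest for 9 (40.9%, against 38.2%). Among the 7 rows that rose, wild type replicate 3 was the highest wild type library in 6 (85.7%, against 29.4% of all tested features).

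**Figure D5:**
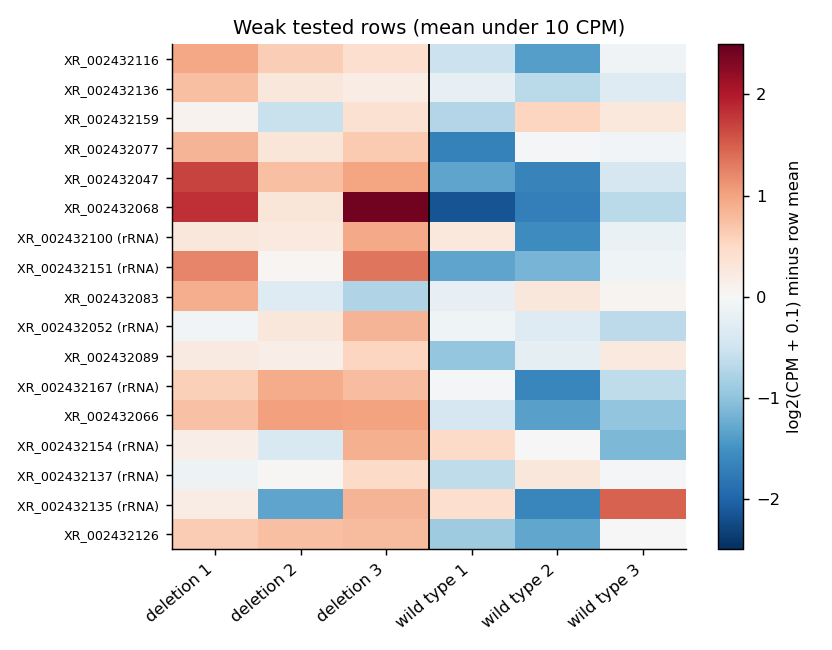
The 17 tested rows with a mean under 10 CPM, as log2(CPM + 0.1) minus the row mean, in deletion libraries on the left and wild type libraries on the right of the black line. Red is above and blue below the row mean. Most rows are red on the left, while rows such as XR_002432159, XR_002432083 and XR_002432135 mix both colours.

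Below the filter lay 107 rows, of which 76 had counts. Together they summed to 177, 167 and 279 counts in the deletion, against 42, 42 and 76 in wild type, again with no overlap. The summed shares of coding, StringTie and RNA gene tag rows below the filter did not overlap either, with the deletion above. In mean CPM, 57 of the 76 were higher in the deletion (75%). Among rows of other kinds below the filter, this share was 77.7% of 292 RNA gene tag rows, 71.6% of 236 StringTie transcripts and 64.8% of 196 coding rows. The untested non-coding rows thus leaned upward at a share between those of the other kinds.

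Among the untested rows, 5 were called higher by the DESeq2 test, which filters differently. They are named here for that call, and their counts were uneven between replicates. XR_002432115, without a match, had 10, 17 and 50 counts in the deletion and 2, 0 and 9 in wild type. The rRNA rows XR_002432048 and XR_002432157 had 20, 8 and 44 counts, and 5, 17 and 22 counts, in the deletion, against 0, 0 and 7 and 0, 0 and 1 in wild type. XR_002432121 and XR_002432171, both matched as rRNA, had 1, 5 and 17 and 1, 8 and 14 counts in the deletion and 0 in all wild type libraries. Other untested rows of 30 to 43 counts in all were not called. XR_002432152 held 2, 17 and 2 counts in the deletion and 4, 9 and 9 in wild type, and XR_002432139 held 12, 0 and 3 in the deletion and 8, 4 and 4 in wild type. XR_002432081 held 4, 6 and 17 counts in the deletion and 0, 0 and 3 in wild type.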

How the data were processed

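Total RNA of 3 snf1 deletion and 3 wild type cultures was sequenced after a directional library kit, per the labels. The authors deposited whole-number counts per transcript for each library, 9235 features each. Tools named per the submitters' processing notes are HISAT2 2.2.1, Trimmomatic 0.38.0, DESeq2 2.11.40.7 and StringTie. No source used here gives the genome build, the counting options or whether strand was used. The authors also deposited a DESeq2 table: its mean of normalised counts (a signal), log2 fold change (treated as a score, since the column holds a stray value), standard error and p-values were used as given.

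Counts were tested with edgeR 4.0.16 in R 4.3.3 (quasi-likelihood, TMM, filterByExpr at its defaults of 10 counts and 15 in total, without covariates), on all features. Standard errors are the size of the log2 fold change over the square root of F. Scripts were tested on simulated data. Alternatives used limma 3.58.1 and DESeq2 1.42.0, other scalings and filters, a replicate block and leaving out each library. The exact permutation test planned for summed shares is not given, since 3 against 3 libraries cannot go below 0.1 and the members were chosen with results known.

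Accessions were matched to the RefSeq table of assembly ASM176148v1 without their version, with 103 of 129 matched and 0 with the same version. Neighbours are the genes before and after in that table. The members and lists were chosen with earlier results of these data known. Rows were named by a rule: the 10 highest by mean CPM, up to 10 rises and 10 falls past the threshold, and the 5 largest differences in share. Other tested rows are named to account for them all, and neighbouring genes, untested rows and the authors' RNA gene tag were chosen after their values were seen. Total counts were 32315239 to 38054417 per library, and the biological coefficient of variation was 0.363, so the spread between libraries, not depth, limits the abundant rows.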

Additional observations from a re-analysis of the deposited data

How the results depend on the processing

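The direction of the difference in share held under all alternatives tried. It was 0.179 to 0.286 percentage points with each library left out, and 0.00957 to 0.0143 points without XR_002432111. The 7 calls among the non-coding rows, all rises, became 12 in the DESeq2 test (21.8% of the 55 with an adjusted p, against 19.3% of all features called higher), 11 without TMM (50%, against 26.9%), 11 with upper-quartile scaling (50%, against 27.7%), 11 with no low-count filter (11.2% of 98, against 16.6%), and 4 to 10 with each library left out, with no row called lower. Only XR_002432125, XR_002432068 and XR_002432047 passed with each library left out. The fewest calls came without deletion replicate 3 and without wild type replicate 2 (4 each, or 18.2% against 12% and 16% against 15.1%). Leaving out wild type replicate 3 gave 10 (40%, against 13%). There were 10 with TMM on coding rows (43.5%, against 21.5%) and 6 with at least 1 CPM in 3 libraries (42.9%, against 19.5%). The rows added by DESeq2 and by no filter were not tested under the filter, and 93 weak rows entered there in place of 17. Counts of rows with signal fell to 24 with at least 1 count in every library and to 14 with at least 1 CPM in 3 libraries, by construction.

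The median log2 fold change of the weak rows, 0.88, was 1.26 in DESeq2, 1.78 with no filter, 1.24 without TMM, 1.23 with upper-quartile scaling, and 0.94 to 1.45 with each library left out. The median of all features moved by 0.36 without TMM, by 0.35 with upper-quartile scaling and by 0.11 with TMM on coding rows. Relative to it, the weak rows stood at 0.84 with and without TMM, at 1.18 in DESeq2 and at 1.69 with no filter. That reference holds features of all levels. With TMM, all weak features (under 10 CPM) had a median of 0.61 themselves, much nearer to the 0.88 of the weak non-coding rows. Of the 22 tested rows, 6 turned sign under some alternative, and none of the 6 passed under any. XR_002432159 went to 0.29 without TMM and 0.28 with upper-quartile scaling, and ran from -0.40 to 0.18 with each library left out. XR_002432170 went to 0.11 and 0.10 and ran from -0.61 to 0.16, and XR_002432129 ran from -0.18 to 0.80. XR_002432083 went to -0.12 in limma-voom and -0.13 with the replicate block, and ran from -0.61 to 0.37. XR_002432135 ran from -1.38 to 0.61 and XR_002432154 from -0.01 to 1.01. The cause was not tested.

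Replicate numbers are shared between groups, but same-numbered libraries deviated together only weakly (correlations 0.0507, 0.146 and 0.141), so they were not taken as pairs. The replicate block gave 7 calls among the non-coding rows and 2754 among all features, against 2685 without it.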
